A study of Homo sapiens with 12 samples.

Results

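The mitochondrial ribosomal protein genes were followed in MCF10A cells, an immortalised and non-tumorigenic human mammary epithelial line, during induction of an activated form of TAZ. The members were all protein-coding genes whose symbol starts with MRPL or MRPS followed by a number, and 78 of the 60483 gene rows met this rule, among 19567 protein-coding rows. Another 85 rows with the same start of the symbol, 78 pseudogenes and 7 long noncoding RNAs, were left out. By subunit, 51 members encode proteins of the large subunit and 26 proteins of the small subunit. The last member, MRPS36, encodes a protein now known as KGD4, an adaptor of the alpha-ketoglutarate dehydrogenase complex and no ribosomal subunit. The members lie on 21 chromosomes, with none on X.

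RNA was sequenced from 12 libraries in 4 groups of 3. All cells carried a doxycycline (Dox)-inducible TAZ-4SA construct, an activated mutant of TAZ, a transcriptional co-activator that Hippo signalling holds back by phosphorylation of serines. The groups were No Dox and 24, 48 and 72 h in 0.05 µg/mL Dox, and all grew in the same DMEM/F12-based medium with horse serum, EGF, hydrocortisone, cholera toxin, insulin, penicillin and streptomycin. The line was made by transduction with the tet-inducible system. No cells given Dox without the construct, and no later untreated times, were analysed here, so that TAZ-4SA, Dox itself and time in culture cannot be told apart. Dox belongs to the tetracyclines, antibiotics that bind bacterial ribosomes and can also slow translation in mitochondria. Whether the replicates came from separate cultures is not stated in the labels, and p-values may therefore reflect technical spread alone.

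Mitochondria keep their own ribosomes, which translate the few mRNAs of the mitochondrial genome into core subunits of the respiratory chain. The rRNAs of these ribosomes come from the mitochondrial genome, while every protein of both subunits is encoded in the nucleus, made in the cytosol and imported. A part of these proteins has counterparts in bacterial ribosomes and is called conserved here, and the rest, called mitochondria-specific here, has none. Of the members, 29 large and 16 small subunit proteins were conserved, and 22 large and 10 small subunit proteins were mitochondria-specific.

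The promoters were read from RefSeq (GRCh38.p14) as 300 bases, 250 before and 50 from the start on, at the first listed start of each gene, and 70 of the 78 members had one. Each was searched on both strands for 6 short motifs, ETS (CCGGAAG), NRF1 (TGCGCA), YY1 (AAGATGG), E-box (CACGTG), TEAD (GGAATG) and AP-1 (TGANTCA), of which the end of the ETS motif can overlap the start of the YY1 motif. The 4 promoters below belong to members described further on, and capitals mark the matches. None of the 6 motifs was found in 13 of the 70 promoters, among them those of MRPL1, MRPS11 and MRPS25. MRPL17 had the largest rise at 24 h and carries a pair of adjoining NRF1 matches (chr11:6683291-6683590, minus strand). MRPL33 had the highest level and carries an ETS match just before the start (chr2:27771469-27771768, plus strand). MRPS23 had the largest rise among small subunit members and carries an ETS match on the other strand (chr17:57849995-57850294, minus strand). MRPL45, the only member that passed the test below as lower at every time, carries NRF1, E-box and YY1 matches (chr17:38296918-38297217, plus strand).
MRPL17: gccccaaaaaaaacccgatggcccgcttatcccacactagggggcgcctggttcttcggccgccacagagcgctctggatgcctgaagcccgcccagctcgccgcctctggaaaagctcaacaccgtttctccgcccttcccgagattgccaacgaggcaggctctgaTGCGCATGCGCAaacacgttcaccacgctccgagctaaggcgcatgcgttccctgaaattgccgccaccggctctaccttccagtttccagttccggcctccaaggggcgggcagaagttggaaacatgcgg
MRPL33: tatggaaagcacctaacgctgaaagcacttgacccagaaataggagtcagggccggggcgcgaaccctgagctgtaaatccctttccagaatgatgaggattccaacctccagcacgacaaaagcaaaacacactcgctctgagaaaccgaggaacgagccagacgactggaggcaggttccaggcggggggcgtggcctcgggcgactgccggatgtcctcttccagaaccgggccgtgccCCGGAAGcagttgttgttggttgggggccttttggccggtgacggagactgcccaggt
MRPS23: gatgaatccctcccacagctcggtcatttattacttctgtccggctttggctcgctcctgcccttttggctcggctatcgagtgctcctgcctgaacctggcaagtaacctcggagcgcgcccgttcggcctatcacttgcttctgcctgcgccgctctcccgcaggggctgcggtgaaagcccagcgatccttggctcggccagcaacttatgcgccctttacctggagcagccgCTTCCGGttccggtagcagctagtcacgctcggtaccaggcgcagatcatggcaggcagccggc
MRPL45: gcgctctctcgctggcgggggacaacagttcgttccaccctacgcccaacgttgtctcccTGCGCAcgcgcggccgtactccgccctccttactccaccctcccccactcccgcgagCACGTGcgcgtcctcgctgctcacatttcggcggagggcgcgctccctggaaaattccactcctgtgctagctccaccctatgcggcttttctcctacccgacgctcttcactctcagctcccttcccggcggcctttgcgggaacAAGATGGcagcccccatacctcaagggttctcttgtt

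The ETS motif was in 29 of the 70 member promoters, or 41.4%, against 14.2% of 15842 promoters of protein-coding genes. The YY1 motif was in 23, or 32.9%, against 6.40%, and in 16 of these members a match lay wholly in the 50 bases from the start on, where 3.06% of protein-coding promoters had one. The NRF1 motif was in 14, or 20%, against 10.8%. At least 1 of the ETS and YY1 motifs stood in 43 members, or 61.4%, against 19.4% of protein-coding promoters. Shares were closer to the background for the TEAD motif, 14.3% against 11.7%, and for the E-box, 10% against 8.88%. The AP-1 motif was below it, in 1 member, or 1.43%, against 5.75%. Median GC content was 60.3% for the members and 62.7% for protein-coding promoters. These matches describe letters in a window and do not show binding. Among promoters of members that were higher at 24 h, 27 of 60 had the ETS motif and 18 had the YY1 motif, and of the other 10 members 2 had the ETS motif and 5 the YY1 motif.

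Libraries held 15382564 to 26570132 expected counts, and every member was counted in every library, with 202.95 to 5869 counts. The SD that RSEM assigns to reads shared with other genes was at most 1.219% of a member's count. Replicates varied with a biological coefficient of variation of 5.71% over all genes. WWTR1, the gene of TAZ, rose from 71.7 ± 2.88 CPM (counts scaled to library size with TMM factors; mean ± SD, n = 3) without Dox to 887 ± 68.1 CPM at 24 h, 844 ± 73.6 at 48 h and 994 ± 59.3 at 72 h. All 10 epithelial markers reached 1 TPM (transcript abundance scaled for length and library size), and their sum was 5741 to 6104 TPM without Dox, 3689 to 3970 at 24 h, 5085 to 5176 at 48 h and 5780 to 6267 at 72 h. Single epithelial markers differed in either direction, with mean TPM at No Dox and 24 h of 2270 and 511 for KRT17, 24.4 and 1.29 for TP63, and 196 and 748 for KRT8. Of the markers of other cell types, 3 of 6 fibroblast genes reached 1 TPM and summed to 35.1 to 36.4 TPM without Dox and 1.17 to 13.9 TPM with it, COL1A2 and COL3A1 being at 0 in all 12 libraries. For immune cells 1 of 5 markers reached 1 TPM (16.7 to 24.6 TPM without Dox, 1.63 to 3.91 with it), for endothelium 2 of 4 (8.05 to 9.75, and 0.05 to 2.92), for adipocytes none of 2 (up to 0.64), and for erythroid cells 1 of 2 (2.79 to 4.99, and 4.13 to 9.22). The genes of these other lists that reached 1 TPM were COL1A1, DCN, LUM, CD14, PECAM1, KDR and HBA1. Mean TPM at No Dox and 24 h was 32.327 and 4.507 for DCN, 19.61 and 2.397 for CD14, and 6.167 and 0.063 for KDR. It was 2.763 and 0.007 for PECAM1 and 3.997 and 6.303 for HBA1. At 72 h KDR stood at 2.713 TPM. PTPRC, CD3E, VWF, ADIPOQ and HBB were at 0.03 TPM or less in every library. The part of these markers in the results was not tested.

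The summed level of the members, on the per-length TPM scale, was higher at every time in Dox. It was 4993, 4984 and 5084 TPM in the No Dox libraries, 8296, 8249 and 8244 TPM at 24 h, 8191, 8002 and 7868 TPM at 48 h, and 7427, 7446 and 7634 TPM at 72 h. The 4 groups did not overlap, with 24 h highest, then 48 h, then 72 h. Large subunit members summed to 3366 ± 54.4 TPM without Dox and 5840 ± 22.9, 5622 ± 110 and 5289 ± 88.3 TPM at 24, 48 and 72 h. Small subunit members went from 1633 ± 13.7 to 2386 ± 23.8, 2361 ± 60.0 and 2183 ± 30.8 TPM. The ratio of large to small subunit TPM was therefore 2.02 to 2.09 in No Dox libraries and 2.36 to 2.48 in Dox libraries, with no overlap.

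Beside them, the mRNAs of cytosolic ribosomal proteins moved the other way. They summed to 256309 ± 4542 TPM without Dox and 197608 ± 2571, 200889 ± 4650 and 209392 ± 15844 TPM at 24, 48 and 72 h, with 72 h replicate 3 at 227252. Members amounted to 1.96 ± 0.0442% of the summed TPM of the 79 cytosolic ribosomal protein genes without Dox, and to 4.18 ± 0.0398, 3.99 ± 0.0124 and 3.59 ± 0.214% at 24, 48 and 72 h. The mitochondrial rRNAs, which poly(A) selection captures only in part, took 0.804 ± 0.0226% of counts without Dox and 0.234 ± 0.0148, 0.180 ± 0.0071 and 0.182 ± 0.0232% with Dox. All values were shares of a library, and in bulk RNA fewer cells of a kind and less RNA per cell cannot be told apart.

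**Figure D1:**
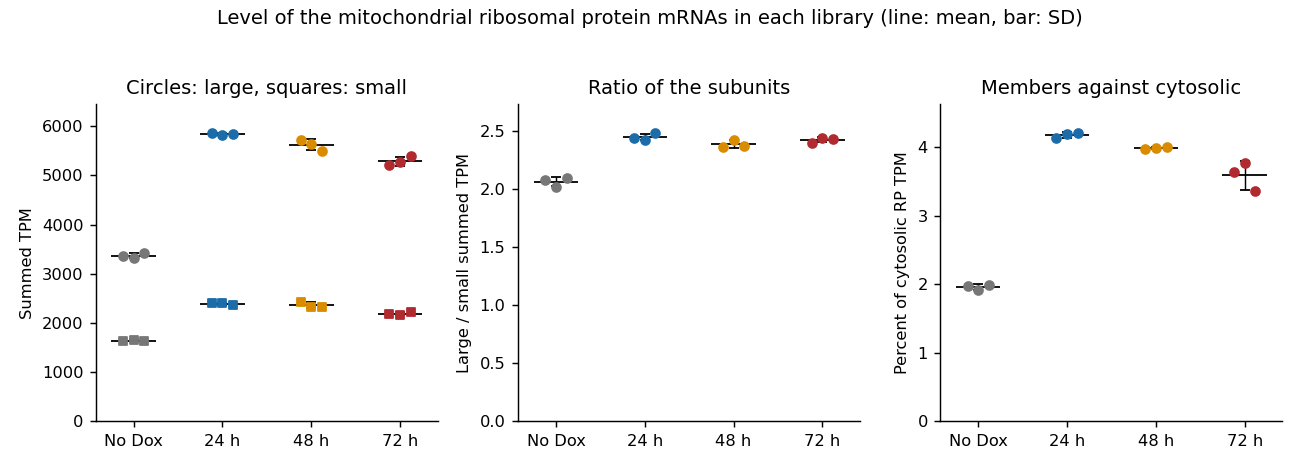
Summed TPM of large (circles) and small (squares) subunit members, their ratio, and all members as a percent of cytosolic ribosomal protein (RP) TPM, 1 point per library, with group mean (line) and SD (bar), n = 3. The Dox libraries lie above the No Dox libraries in each panel, and large subunit members go from 3366 to 5840 TPM at 24 h.

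MRPL33, a conserved protein of the large subunit, had the highest mean TPM of the members (479 TPM over 12 libraries). It stood at 245 ± 12.9 TPM without Dox, 552 ± 23.9 at 24 h and 590 ± 77.2 at 72 h. Next came MRPL12 (244 TPM), whose protein forms the flexible stalk that receives translation factors, MRPS34 (229 TPM), MRPL24 (224 TPM) and MRPS24 (185 TPM). The lowest were MRPL50 (11.5 TPM), MRPL57 (21.5 TPM) and MRPS17 (22.4 TPM), and the median over the members was 76.5 TPM. Members of high level differed in response, since MRPL33 rose by 1.33 on the log2 scale of counts at 24 h and MRPS24 did not pass there (-0.05).

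At 24 h, 67 of the 78 members were higher than without Dox, 2 were lower and 9 did not pass, by edgeR's quasi-likelihood test at an adjusted p under 0.05. Over all 14822 genes tested, 37% were higher and 38.2% lower. The median log2 fold change of the members was 0.63, against -0.03 for all genes and 0.03 for the 12588 protein-coding genes. At least 2-fold rises were seen in 9 of the 78 members, a share near the 11.9% of all genes. Most of the members' rises were under 2-fold. Replicates did not overlap in 67 members that were higher and 5 that were lower, against 38% and 39.6% of all genes. Among large subunit members 47 of 51 rose (median 0.63), and among small subunit members 19 of 26 (median 0.53). Conserved members rose in 41 of 45 cases (median 0.69), and mitochondria-specific members in 25 of 32 (median 0.51). The difference between these classes was not tested.

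**Figure D2:**
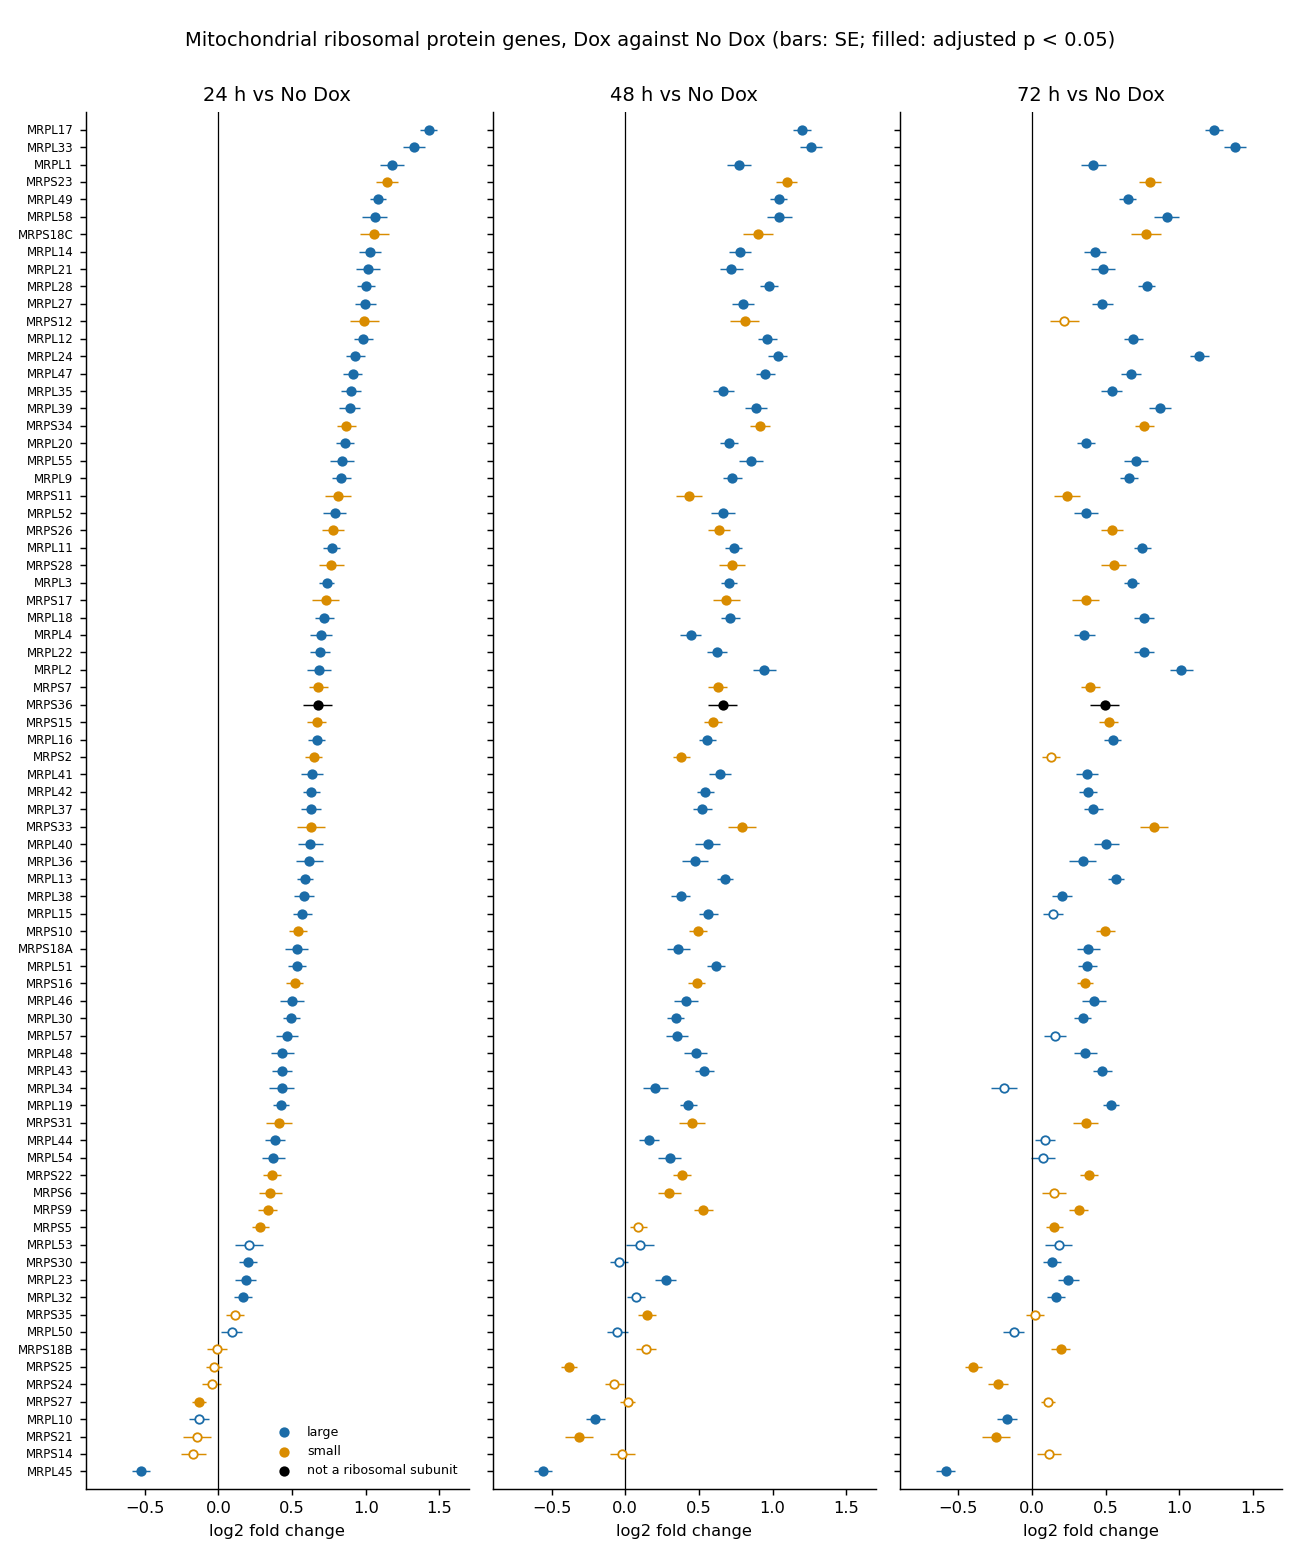
Log2 fold change of each of the 78 members against No Dox at 24, 48 and 72 h, ordered by the 24 h value, with SE bars from edgeR and filled points at an adjusted p under 0.05. Most points lie right of 0 at each time, from MRPL17 (1.43 at 24 h) down to MRPL45 (-0.53), and the cloud moves towards 0 at 72 h.

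MRPL17, a conserved large subunit protein, had the largest rise at 24 h. It was at 36.7, 38.1 and 34.4 CPM in the No Dox libraries, 98.9, 95.2 and 99.3 CPM at 24 h, 86.8, 83.1 and 80.2 CPM at 48 h, and 83.0, 84.4 and 89.4 CPM at 72 h. Every Dox library stood far above every No Dox library, and the 24 h libraries were the highest. Its log2 fold change was 1.43 ± 0.059 (SE) at 24 h (adjusted p = 5.2e-18, edgeR) and 1.24 ± 0.059 at 72 h. MRPL33 stood at 43.9, 41.5 and 42.1 CPM without Dox, 103, 105 and 113 CPM at 24 h, 104, 104 and 97.8 CPM at 48 h, and 98.4, 105 and 128 CPM at 72 h. Here the Dox groups overlapped each other and not the No Dox group, and the rise of 1.33 ± 0.076 at 24 h was 1.38 ± 0.076 at 72 h (adjusted p = 8.3e-14 and 5.4e-14, edgeR). One 72 h library, replicate 3, lay above the other two.

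MRPL1, whose protein forms the stalk at the exit side for tRNAs, was at 19.2, 19.1 and 17.3 CPM without Dox, 43.0, 40.2 and 42.2 CPM at 24 h, 33.1, 30.3 and 31.5 CPM at 48 h, and 21.6, 26.7 and 25.9 CPM at 72 h. The 4 groups did not overlap, and each later time was lower, although with effective lengths taken into account the step from 48 to 72 h did not pass (-0.29, adjusted p = 0.077, edgeR). The log2 fold changes against No Dox fell from 1.18 ± 0.081 through 0.77 ± 0.083 to 0.42 ± 0.084 over the 3 times (adjusted p = 4.0e-13, 3.6e-09 and 9.2e-05, edgeR). MRPS23, a mitochondria-specific protein of the small subunit, had 32.6, 33.0 and 31.9 CPM without Dox, 67.3, 70.8 and 77.3 CPM at 24 h, 71.0, 71.8 and 65.1 CPM at 48 h, and 50.9, 55.5 and 63.1 CPM at 72 h. The 24 and 48 h libraries overlapped and lay above those at 72 h, which in turn lay above No Dox.

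MRPL49, a mitochondria-specific large subunit protein, was at 38.6, 38.5 and 38.5 CPM without Dox, 81.6, 81.8 and 81.6 CPM at 24 h, 80.8, 79.2 and 77.8 CPM at 48 h, and 61.3, 57.6 and 62.3 CPM at 72 h. Replicates were close, and the 72 h libraries lay between the No Dox and the earlier Dox libraries. The other members with at least 2-fold rises at 24 h were MRPL58, a peptidyl-tRNA hydrolase built into the large subunit (1.06 ± 0.084), MRPS18C (1.06 ± 0.10), MRPL14 (1.03 ± 0.072) and MRPL21 (1.01 ± 0.079). MRPL14 is the conserved protein at which the assembly factor MALSU1 docks. MRPL12 (0.98 ± 0.064), MRPS34 (0.87 ± 0.065) and MRPS17 (0.73 ± 0.092) also rose, at 24 h, below the 2-fold mark.

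MRPL45 was the only member that passed as lower at all 3 times. Its protein is mitochondria-specific and sits near the exit of the large subunit's tunnel, on the side that faces the inner membrane. It was at 80.9, 84.4 and 84.6 CPM in the No Dox libraries, 56.8, 59.4 and 57.3 CPM at 24 h, 57.3, 59.5 and 52.3 CPM at 48 h, and 52.5, 53.5 and 59.8 CPM at 72 h. All Dox libraries lay below all No Dox libraries and overlapped among themselves. The log2 fold changes were -0.53 ± 0.062, -0.56 ± 0.062 and -0.59 ± 0.062 at 24, 48 and 72 h (adjusted p = 1.9e-08, 7.1e-09 and 3.1e-09, edgeR). The other member lower at 24 h, MRPS27, a small subunit protein with RNA-binding repeats, had 149, 153 and 156 CPM without Dox and 145, 136 and 138 CPM at 24 h. Its difference of -0.13 ± 0.049 (adjusted p = 0.018, edgeR) was small, and it no longer passed without No Dox replicate 3 (-0.12, adjusted p = 0.0693), 24 h replicate 2 (-0.11, adjusted p = 0.0595) or 24 h replicate 3 (-0.12, adjusted p = 0.0606), nor with effective lengths taken into account (-0.11, adjusted p = 0.103).

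At 48 h, 65 members were higher and 4 lower than without Dox, where 36% of all genes were higher and 35.8% lower, and the median log2 fold change was 0.56. At 72 h, 60 were higher and 5 lower (34.2% and 34.8% of all genes), with a median of 0.38. At least 2-fold rises were seen in 6 of the 78 members at 48 h and 4 at 72 h, shares below the 10.6% and 10.1% of all genes. The 4 at 72 h were MRPL33, MRPL17, MRPL24 (1.14 ± 0.063) and MRPL2 (1.01 ± 0.079). The 3 comparisons share the No Dox libraries. Across them 56 members were higher at every time, against 25.8% of all genes, and MRPL45 was lower at every time, against 25.7%. MRPL50, MRPS14 and MRPL53 passed at no time, MRPL53 being named after its values were seen. The joint test of the time course passed for 76 members, against 86.4% of all genes.

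The members lower at 72 h were MRPL45, MRPS25, MRPS21, MRPS24 and MRPL10, and their number was 3 without No Dox replicate 1, No Dox replicate 3 or 72 h replicate 2. MRPS24, the small subunit counterpart of bacterial S3, was at 68.8, 76.6 and 70.1 CPM without Dox and 61.4, 57.9 and 63.9 CPM at 72 h. These groups did not overlap, and its log2 fold change was -0.23 ± 0.067 (adjusted p = 0.0035, edgeR). MRPS21 was at 71.7, 73.9 and 71.1 CPM without Dox and at 63.5, 47.5 and 70.8 CPM at 72 h, so that 1 library, replicate 2, set most of its difference of -0.24 ± 0.094 (adjusted p = 0.029), which was -0.10 without it (adjusted p = 0.156, edgeR). That call also ended without any 1 of the No Dox replicates (-0.22 to -0.25, adjusted p = 0.0547 to 0.0839) or 24 h replicate 2 (-0.24, adjusted p = 0.0577). MRPL10, which anchors the stalk that MRPL12 forms, had 44.5, 43.1 and 46.5 CPM without Dox and 42.8, 36.5 and 39.7 CPM at 72 h (-0.17 ± 0.066, adjusted p = 0.024, edgeR), and 72 h replicate 2 was again the lowest. Its call ended without No Dox replicate 1 or 3 or 72 h replicate 2 or 3 (-0.12 to -0.17, adjusted p = 0.0573 to 0.134). With effective lengths taken into account neither MRPS21 (-0.25, adjusted p = 0.0634, edgeR) nor MRPL10 (-0.14, adjusted p = 0.165) passed at 72 h, and MRPL10 was at -0.03 on TPM (adjusted p = 0.689, limma). MRPS21 did not pass when the 72 h and No Dox groups were fitted alone either (-0.22, adjusted p = 0.232, edgeR).

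Between 24 and 72 h, 42 members fell and 5 rose, where 30.2% of all genes fell and 30.4% rose, with a median difference of -0.16 on the log2 scale for the members and 0.01 for all genes. From 24 to 48 h 17 members, or 21.8%, fell and 3, or 3.85%, rose, where 18.4% and 18.3% of all genes did. The share that fell was thus near that of all genes, and the share that rose was below it. The median in this step was -0.06. With effective lengths 9 members fell and 0 rose in edgeR, and 11 fell and 0 rose in DESeq2. From 48 to 72 h 24 members, or 30.8%, fell and 1 rose (20.2% and 18.5% of all genes), with a median of -0.11. The first step was the less stable, since 9 members fell without 24 h replicate 1 and 10 without 48 h replicate 3. Without 24 h replicate 2 or 48 h replicate 1 its rises numbered 1, and without 24 h replicate 1 they numbered 5. The group mean was highest at 24 h for 50 members, at 48 h for 12, at 72 h for 11 and without Dox for 5.

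MRPS12, the conserved protein at the decoding centre of the small subunit, fell most from 24 to 72 h. It was at 40.5, 41.5 and 49.3 CPM without Dox, 91.5, 81.2 and 88.3 CPM at 24 h, 81.9, 75.7 and 72.8 CPM at 48 h, and 56.3, 41.6 and 54.0 CPM at 72 h. The 72 h libraries overlapped with No Dox and lay below all others in Dox, and the difference from 24 h was -0.77 ± 0.096 (adjusted p = 2.1e-06, edgeR). MRPL1 fell by nearly as much (-0.76 ± 0.078). MRPL34, a conserved large subunit protein, was at 32.5, 28.9 and 32.7 CPM without Dox, 43.3, 42.5 and 41.1 CPM at 24 h, 37.9, 35.4 and 35.3 CPM at 48 h, and 29.97, 22.2 and 29.7 CPM at 72 h. It ended near or under its starting level, with a difference of -0.62 ± 0.085 from 24 h (adjusted p = 5.3e-07, edgeR). MRPL14 (-0.60 ± 0.070), MRPS11 (-0.57 ± 0.085), MRPL21 (-0.54 ± 0.076) and MRPL15 (-0.43 ± 0.066) fell as well.

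MRPL2 and MRPL24 were the members that rose at 24 h and were higher still at 72 than at 24 h. Neither passed in the step from 48 to 72 h. MRPL2, whose bacterial counterpart lies beside the peptidyl transferase centre, was at 20.3, 20.7 and 24.2 CPM without Dox, 37.4, 31.1 and 36.2 CPM at 24 h, 43.5, 41.6 and 40.5 CPM at 48 h, and 43.7, 44.3 and 43.9 CPM at 72 h. The 72 h libraries lay above every other library, and the difference from 24 h was 0.33 ± 0.075 (adjusted p = 4.4e-04, edgeR). MRPL24 had 61.0, 65.6 and 59.9 CPM without Dox, 120, 113 and 122 CPM at 24 h, 138, 125 and 118 CPM at 48 h, and 130, 132 and 147 CPM at 72 h. Its 72 h libraries lay above those at 24 h and overlapped with 48 h (0.21 ± 0.061 from 24 to 72 h, adjusted p = 0.0049), although with effective lengths taken into account the difference was 0.18 (adjusted p = 0.0553, edgeR). The other members higher at 72 than at 24 h were MRPS14 (0.29 ± 0.082), MRPS27 (0.24 ± 0.049) and MRPS18B (0.20 ± 0.066), which had not risen at 24 h. The MRPS18B difference no longer passed without 24 h replicate 3 (0.16, adjusted p = 0.0649, edgeR) or 72 h replicate 3 (0.14, adjusted p = 0.0855), nor with effective lengths taken into account (0.02, adjusted p = 0.898).

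**Figure D3:**
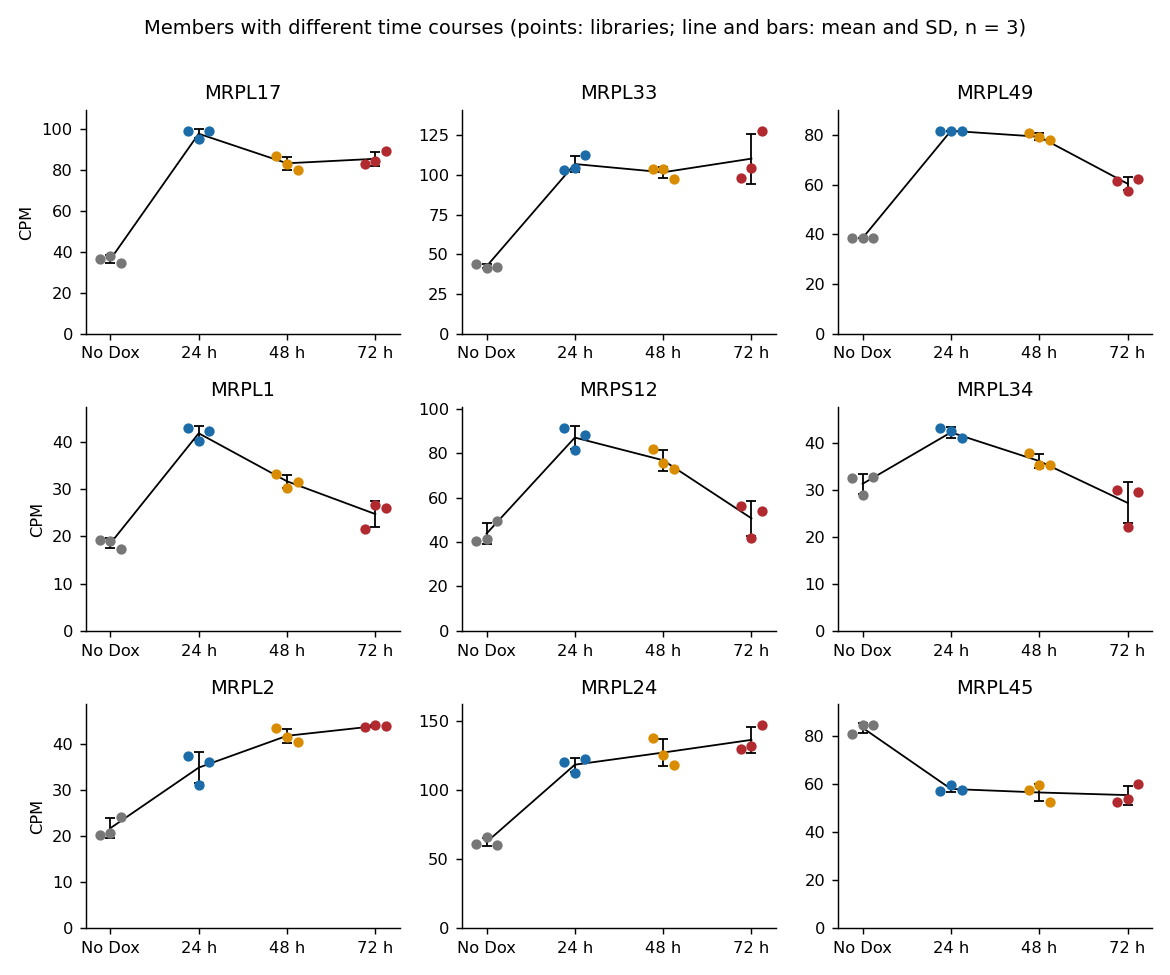
CPM of 9 members in each library (points) with group mean and SD (line and bars, n = 3) without Dox and at 24, 48 and 72 h. MRPL17 and MRPL33 stay high, and MRPL1, MRPS12 and MRPL34 peak at 24 h and fall back. MRPL2 and MRPL24 have higher means at 72 than at 24 h, and MRPL45 drops from 83.3 to 57.9 CPM at 24 h.

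For some small subunit members the direction depended on whether transcript length was taken into account. RSEM gives each gene an effective length, which moves with the mix of its isoforms, and in 6 members, MRPS16, MRPS25, MRPS18C, MRPS11, MRPS18B and MRPS14, it differed at least 1.2-fold between group means. Counts do not correct for this and TPM does. MRPS25 had an effective length of 1868 ± 75.5 nt in No Dox cells, then 1260 ± 81.8 nt at 24 h, 1334 ± 120 nt at 48 h and 1522 ± 38.7 nt at 72 h. Its counts were at 88.8, 89.0 and 83.2 CPM without Dox, 81.2, 90.2 and 84.0 CPM at 24 h, 64.7, 68.5 and 66.8 CPM at 48 h, and 64.9, 65.7 and 67.3 CPM at 72 h. By counts it did not pass at 24 h (-0.03) and was lower at 48 h (-0.38 ± 0.056) and 72 h (-0.40 ± 0.056), while in edgeR with effective lengths the same differences were 0.52 (adjusted p = 7.5e-06), 0.10 (adjusted p = 0.236) and -0.13 (adjusted p = 0.115).

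MRPS16, a conserved small subunit protein, rose on both scales and by very different amounts. Its effective length went from 1908 ± 286 nt without Dox to 1261 ± 113, 1219 ± 64.9 and 1063 ± 49.6 nt. Its log2 fold change of counts was 0.52 at 24 h and 0.36 at 72 h, and its log2 ratio of mean TPM 1.14 and 1.26. For the paralogs MRPS18A, MRPS18B and MRPS18C, of which MRPS18A belongs to the large subunit and the others to the small, effective length moved in B and C. MRPS18A rose by 0.53 ± 0.077 at 24 h and MRPS18C by 1.06 ± 0.10, with a log2 TPM ratio of 0.80 for MRPS18C. MRPS18B had differences of -0.01 at 24 h and 0.19 ± 0.066 at 72 h by counts (adjusted p = 0.011, edgeR), and of -0.15 at 72 h with effective lengths (adjusted p = 0.154, edgeR). Its 72 h call also ended without 72 h replicate 3 (0.13, adjusted p = 0.0962, edgeR). Over the 78 members the median log2 TPM ratio was 0.71, 0.69 and 0.52 at 24, 48 and 72 h, above the medians from counts. With effective lengths in edgeR the members' medians were 0.655, 0.618 and 0.42. TPM carries no TMM factors, and in limma on TPM all genes shifted up by a median of 0.049, 0.071 and 0.09. The parts of length and of scaling were not tested. At least 2-fold higher mean TPM was seen in 16, 11 and 5 members, where 13.6, 12.8 and 12.3% of all genes tested had it. The sign differed between the scales for 3, 4 and 1 members, from MRPL50, MRPS14, MRPS18B, MRPS24, MRPS25 and MRPS30. In MRPL50 and MRPS24 the effective length hardly moved, by 1.002- and 1.014-fold between group means. MRPL50 at 48 h was at 0.008 on TPM and -0.054 by counts, and MRPS24 at 24 h was at 0.008 and -0.046.

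**Figure D4:**
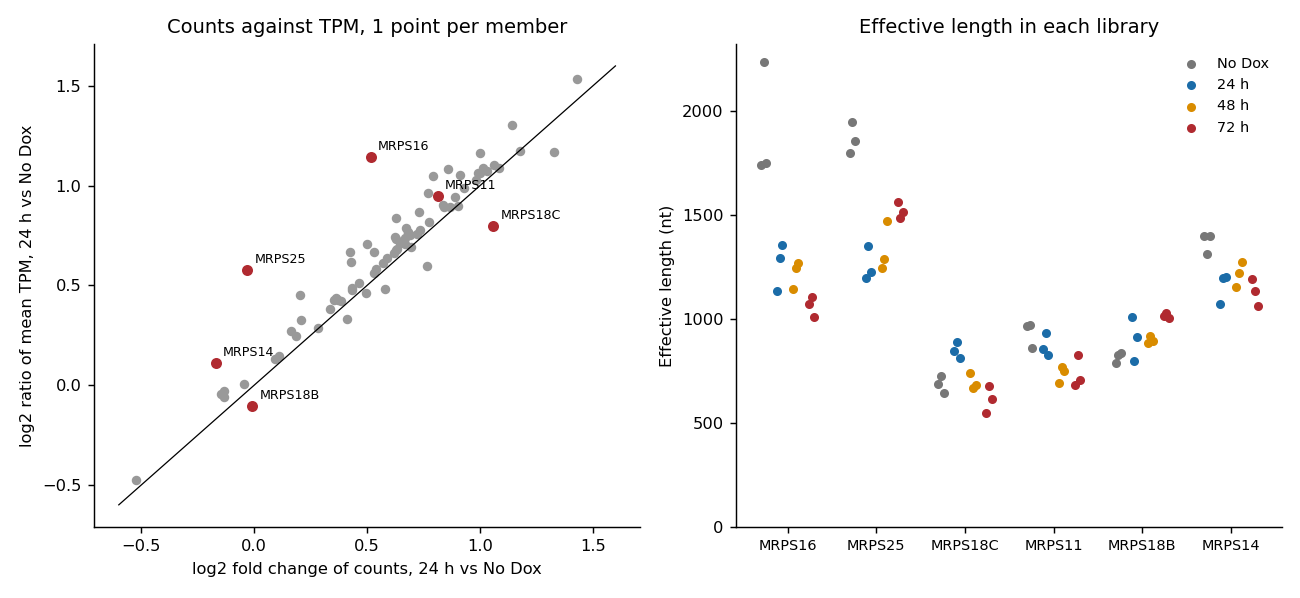
Left, log2 ratio of mean TPM against log2 fold change of counts at 24 h, 1 point per member, with the line of equality and, in red, the 6 members whose effective length differed at least 1.2-fold. Right, effective length in nt in each library for these 6, where MRPS16 and MRPS25 are longest without Dox (1908 and 1868 nt on average).

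The same comparisons were read for other genes of mitochondrial translation, in lists chosen with results of these data known. Of 5 proteins of this ribosome under other names, AURKAIP1 (1.04, adjusted p = 2.4e-12), GADD45GIP1 (0.90), CHCHD1 (0.71) and DAP3 (0.38) rose at 24 h and PTCD3 fell by 0.23 on the log2 scale. Of 28 genes for assembly of this ribosome and modification of its rRNA, 18 rose and 5 fell at 24 h, and 11 rose and 9 fell at 72 h. Of all genes tested, 37% rose and 38.2% fell at 24 h, and 34.2% rose and 34.8% fell at 72 h. The 72 h counts of the assembly genes were thus near the shares of all genes. MPV17L2, which binds the large subunit during assembly, went from 6.06 ± 0.684 to 23.9 ± 4.10 CPM at 24 h (1.97), and MALSU1, which keeps unfinished large subunits from joining, from 13.2 ± 2.07 to 35.6 ± 2.70 CPM (1.42). Of 21 genes of mitochondrial transcription and RNA processing 18 rose and 1 fell at 24 h (median 0.44), among them POLRMT, the mitochondrial RNA polymerase (1.09), PNPT1 (1.18) and SLIRP (1.01).

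Translation factors were mixed at 24 h, when 37% of all genes were higher and 38.2% lower. Of 17 factors 8 were higher and 3 lower, with TACO1, an activator of MT-CO1 translation, at 1.14 and the release factor MTRF1 at -0.84. Of 20 mitochondrial tRNA synthetases 10 were higher and 3 lower (median 0.21). The respiratory chain genes of the nucleus moved less than the members, with 40 of 74 higher and 17 lower and a median of 0.17. Of the 13 mRNAs of the mitochondrial genome, which these ribosomes translate, 3 were higher and 6 lower at 24 h (median -0.11). At 72 h 8 were lower (median -0.33), where 34.8% of all genes were. MT-CO1 was at -0.94 at 24 h and MT-ND1 at -1.44 at 72 h. Cytosolic ribosomal protein genes fell in 68 of 79 cases and rose in 3 at 24 h (median -0.41), with RPL13A at -0.78.

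**Figure D5:**
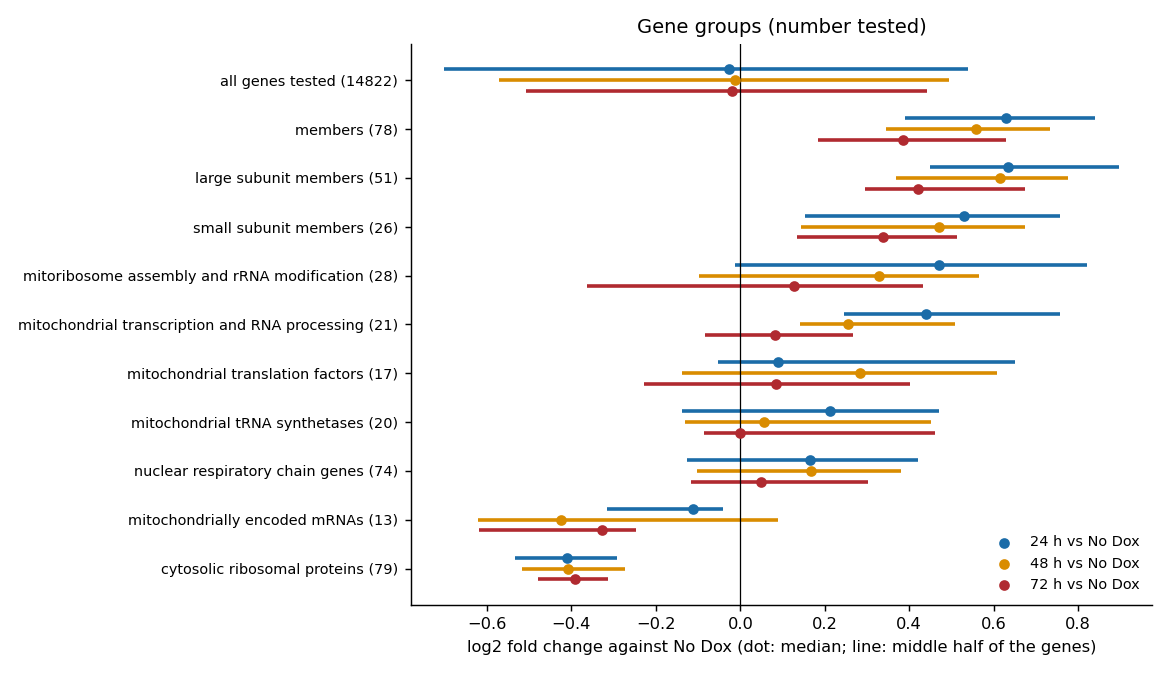
Median log2 fold change (dot) and interquartile range (line) for all genes tested, the members and related groups at 24, 48 and 72 h against No Dox, with the number of genes tested in parentheses. The members' medians (0.63, 0.56 and 0.38) lie right of those of all genes, and cytosolic ribosomal proteins lie left of 0 (-0.41 at 24 h).

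Of 11 regulators of nuclear genes for mitochondria, 4 rose and 7 fell at 24 h, where 37% and 38.2% of all genes did. The share that rose was thus near that of all genes. NRF1, whose motif was counted above, rose from 11.8 ± 1.37 to 24.1 ± 2.54 CPM at 24 h (1.03, adjusted p = 4.2e-10, edgeR) and stood at 15.04 ± 1.11 CPM at 72 h (0.35). PPARGC1A, the co-activator PGC-1alpha, was at 4.86 ± 0.522 CPM without Dox and 0.0163 ± 0.0283 CPM at 24 h, and MYC fell from 594 ± 6.11 to 262 ± 4.53 CPM (-1.18). GABPA fell by 0.24 and YY1 by 0.27 on the log2 scale.

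Members often shared their start region with another gene. With protein-coding neighbours on the opposite strand whose starts lie within 1000 bases and whose bodies do not overlap, 17 members, or 21.8%, had at least 1 such neighbour, against 8.54% of 20046 protein-coding genes. Of the 17 neighbours tested, 11 rose and 4 fell at 24 h (median 0.50), where 37% and 38.2% of all genes did. At 72 h 8 rose and 3 fell (median 0.19), where 34.2% and 34.8% of all genes did. These neighbours include MRPL46 and MRPS11, which are members themselves, and both PSMA2 and a gene without a symbol beside MRPL32. Whether neighbours and members rose together was not tested. MRPL46 and MRPS11 face each other on chromosome 15 with starts 63 bases apart, and rose by 0.50 and 0.81 at 24 h. MRPL49 begins 6 bases from FAU, which encodes a protein of the cytosolic ribosome fused to a ubiquitin-like part, and FAU rose by 0.32 at 24 h (adjusted p = 3.0e-04, edgeR), where MRPL49 rose by 1.083. MRPS12 and SARS2, the mitochondrial serine tRNA synthetase, start 181 bases apart and rose by 0.99 and 0.27. Other pairs were chosen after the values were seen. MRPL47 rose (0.91) beside NDUFB5, a subunit of respiratory complex I that fell by 0.38 on the log2 scale at 24 h with its start 41 bases away. MRPL52 rose (0.79) and lay 59 bases from SLC7A7, an amino acid transporter subunit that went from 1.35 ± 0.0313 to 0.172 ± 0.0217 CPM at 24 h (-2.93), while MRPL57 (0.47) rose together with SKA3, 106 bases away, a mitotic spindle gene that went from 11.4 ± 0.916 to 77.5 ± 2.22 CPM (2.77).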

How the data were processed

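Poly(A)-selected, strand-specific paired-end RNA-seq libraries were analysed from 12 samples in 4 groups of 3. The authors ran STAR against GRCh38 and RSEM with the GENCODE version 22 annotation. No version of either tool was named, and the strandedness option is likewise not given in the sources used here. The deposited tables give, for each gene, the expected count (reads shared between genes are split, so values need not be whole), TPM (scaled for length and library by the authors), the effective length and the SD due to shared reads. FPKM was not used here. Symbols and coordinates came from GENCODE version 44 (GRCh38) by stable identifier.

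Expected counts were rounded. Genes were kept with filterByExpr (14822, including all 78 members), scaled with TMM factors and fitted over all 12 libraries with edgeR's robust quasi-likelihood F test (R 4.3.3, edgeR 4.0.16), with Benjamini-Hochberg adjustment over all genes tested. Passing means an adjusted p under 0.05, and a 2-fold call also needs a log2 fold change of 1 or more in size. CPM used the same factors. SEs are those implied by F. TPM was summed and compared as group means, without a test. Alternatives were other scaling factors, no filter, effective lengths, DESeq2 1.42.0, limma 3.58.1 on log2(TPM + 1), glmTreat against 1.2-fold, fits restricted to a pair of groups, a block for the replicate number, and omission of each library.

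Members and gene lists were chosen with earlier results of these data known. Named members were the highest and lowest by log2 fold change in each comparison among those past the test without overlap between replicates (up to 5 each way against No Dox, 4 between 24 and 72 h, 2 in the steps), all 2-fold calls, the 5 of highest and 3 of lowest TPM, the MRPS18 paralogs, and members whose effective length differed or whose TPM and counts differed in direction, 32 in all. Outside the members the rule took up to 3 genes per list and comparison, facing neighbours and WWTR1. Other genes are named where a count of 5 or fewer is listed or a regulator's motif was searched (GABPA, YY1, MRPS36, MRPL53, and the remaining mitochondrial ribosomal proteins).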

Additional observations from a re-analysis of the deposited data

Results flagged for a closer look

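Among the 32 named members, 25 differed between times in Dox by the test of the difference itself (edgeR, adjusted p under 0.05). Some members were named because they passed these same comparisons, so this count and its directions follow in part from the naming rule. Of all genes tested, 30.4% were higher and 30.2% lower at 72 than at 24 h. Each member is given by the comparison with its smallest adjusted p. In 20 of the 25 members the later time was lower. The falls from 24 to 72 h, on the log2 scale, were -0.77 for MRPS12, -0.76 for MRPL1, -0.62 for MRPL34, -0.60 for MRPL14, -0.57 for MRPS11 and -0.54 for MRPL21. Smaller falls over the same interval were -0.43 for MRPL49, -0.43 for MRPL15, -0.37 for MRPS25, -0.37 for MRPS17, -0.34 for MRPS23, -0.31 for MRPL57 and -0.29 for MRPL12 (-0.295 before rounding). MRPS18C (-0.28), MRPL50 (-0.21), MRPS24 (-0.18) and MRPS16 (-0.16) also fell from 24 to 72 h. MRPL17 (-0.23) and MRPS30 (-0.24) fell from 24 to 48 h, and MRPS9 (-0.21) from 48 to 72 h. Several of these calls rested on single libraries or on the scale. MRPS24 no longer passed without 24 h replicate 1, 24 h replicate 3 or 72 h replicate 2 (-0.135 to -0.164, adjusted p = 0.0625 to 0.125, edgeR). MRPS18C no longer passed without 24 h replicate 1, 72 h replicate 1 or 72 h replicate 2 (-0.211 to -0.254, adjusted p = 0.0536 to 0.0823, edgeR), and MRPS16 without 24 h replicate 2 or 72 h replicate 1 (-0.132 and -0.133, adjusted p = 0.0591 and 0.0699, edgeR). With effective lengths both turned sign. MRPS9 no longer passed without 48 h replicate 1 (-0.161, adjusted p = 0.0661, edgeR), and MRPL50 no longer passed on TPM (-0.166, adjusted p = 0.107, limma). In the other 5 members the later time was higher, from 24 to 72 h, by 0.33 for MRPL2, 0.29 for MRPS14, 0.24 for MRPS27, 0.21 for MRPL24 and 0.20 for MRPS18B.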

How the results depend on the processing

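The members' rise against No Dox kept its direction in every alternative, with 61 to 69 members higher at 24 h, 57 to 68 at 48 h and 45 to 67 at 72 h, and the median over all genes shifted by at most 0.09 on the log2 scale. Of 123 calls of named members, 70 passed in every alternative and 4 were reversed in at least 1. For the rest the cause was not tested unless stated.

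At 24 h the members lower numbered 4 with upper-quartile factors and with TMM over nuclear protein-coding genes, and 1 with no filter, with effective lengths in edgeR or DESeq2, on TPM and with glmTreat, and 1 to 3 on leaving out a library (1 without No Dox replicate 3 or 24 h replicate 3). The median of all members was 0.57 with upper-quartile factors, 0.59 with TMM over nuclear genes and 0.69 on TPM, and 16 rose 2-fold on TPM. At 48 h the members lower numbered 2 with effective lengths in edgeR or DESeq2 and with glmTreat, and 1 on TPM. The 2-fold rises were 3 with upper-quartile factors and 11 on TPM, and the median was 0.50 with upper-quartile factors, 0.52 with TMM over nuclear genes, 0.62 and 0.60 with effective lengths in edgeR and DESeq2, 0.68 on TPM and 0.52 to 0.59 on leaving out a library. At 72 h the members lower numbered 2 with effective lengths in edgeR, 3 in DESeq2, 2 on TPM, 2 with glmTreat and 3 to 6 on leaving out a library, and the median was 0.42 with effective lengths in edgeR and 0.51 on TPM.

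From 24 to 48 h the rises numbered 0 with effective lengths in edgeR or DESeq2 and with glmTreat (3 by the edgeR test of the report), and 1 to 5 on leaving out a library. The falls numbered 9, 11 and 9 with effective lengths in edgeR, in DESeq2 and on TPM, 0 with glmTreat, which tests against 1.2-fold by construction, and 9 to 19 on leaving out a library. From 48 to 72 h the rises were 2 with upper-quartile factors, 0 with effective lengths in either tool or glmTreat and 0 to 2 on leaving out a library, the falls were 3 with glmTreat, and the median was -0.141 to -0.063 on leaving out a library. From 24 to 72 h the rises were 3 with effective lengths in either tool and 0 with glmTreat, the falls 14 with glmTreat, and the median -0.21 to -0.14 on leaving out a library.

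With effective lengths in edgeR, in DESeq2 and on TPM, in that order, values of opposite sign were 0.52, 0.52 and 0.57 for MRPS25 at 24 h, 0.099, 0.079 and 0.171 for MRPS25 at 48 h, 0.17, 0.16 and 0.19 for MRPS18C and 0.071, 0.061 and 0.12 for MRPS16 from 24 to 72 h, and -0.149, -0.16 and -0.049 for MRPS18B at 72 h. MRPS30 at 48 h was 0.21 on TPM. Of these settings the one in edgeR keeps the report's tool and adds the effective length, with the scaling computed again on length-adjusted counts. That setting shifted all genes by a median of -0.01, -0.011 and -0.02 at 24, 48 and 72 h against No Dox. The other settings change the tool and the scaling as well. Samples of the same replicate number did not deviate together in a regular way (18 pairs, r = -0.23 to 0.391, 4 over 0.1). Their mean r was 0.028, against -0.014 for other pairs. Because the groups are small, this check cannot decide whether the numbers carry a pairing. With a replicate block 68 members were higher and 2 lower at 24 h, 65 and 4 at 48 h, and 63 and 6 at 72 h. Leaving out members with over 5% shared reads was planned and not run, because no member passed that limit.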
